A study of Olea europaea with 24 samples.

Results

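Branches of 3 olive trees (Olea europaea) whose water supply was withdrawn, here called the dried trees 4, 8 and 12, were compared between 6 June and 7 May, with each tree set against itself. The comparison rests on 6 libraries, 1 for each tree and day, of 24 in the series. The series followed 6 trees over 7 May, 23 May, 6 June and 29 July. Its other trees, 3, 9 and 11, were kept watered. Per the labels, all trees were irrigated with 1.2 litres each day, and the treatment of the dried trees was 1 litre a week for 2 weeks and no water for another 2 weeks. The labels do not tie those weeks to the calendar, so on both days a tree is known only by its arm and date, and the 30 days between the dates cover season and treatment together. Nothing is recorded of cultivar, age of the trees or size of the branches. RNA was extracted from ground frozen branch with CTAB, and poly-A transcripts were sequenced.

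The authors gave short names to 97 of the 50663 rows of their count table, read here as enzymes and transporters of carbohydrate metabolism, and the roles below are taken from those names, apart from gluct1 and the aglucan rows, which are given none. In plant cells starch is built inside plastids from ADP-glucose, which ADP-glucose pyrophosphorylase makes from glucose 1-phosphate. Starch synthases lengthen the chains, branching enzymes add branch points, and beta-amylases later release maltose that a maltose exporter carries to the cytosol. Sucrose, the main transported sugar in many plants, is split either by invertase into glucose and fructose or by sucrose synthase into UDP-glucose and fructose. Branches of woody plants hold starch in living cells of wood and bark, and soluble sugars there are known to rise in many species when water is short.

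Library totals were 11929380, 8577468 and 12025731 counts in trees 4, 8 and 12 on 6 June, against 7635715, 6675182 and 6852129 on 7 May. Much of this went to 29 unnamed abundant rows, defined as holding at least 1% of the count of any of the 24 libraries. They took 91.0%, 62.8% and 68.2% of the count in trees 4, 8 and 12 on 6 June (mean 74.0% ± 14.9, SD, n = 3), against 31.1%, 50.0% and 22.1% on 7 May (34.4% ± 14.3). The libraries of the days did not overlap in this share. The counts left for all other rows were 1077796, 3187816 and 3821037 on 6 June, against 5257316, 3336764 and 5339305 on 7 May. Tree 4 on 6 June was therefore the shallowest for the rows described below, where 1 count equalled 0.601 CPM, against 0.177 CPM in tree 8 and 0.132 CPM in tree 12. Levels are given as CPM, a count as its rate per 1e6 counts of library size after TMM scaling, which limits the pull of abundant rows. Levels of different rows cannot be ranked, since the files used here give no transcript lengths. The files name no markers of wood, bark or leaf, so the branch label could not be checked against tissue markers.

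Of 26659 rows with enough counts to test, 1827 (6.85%) differed between the days in dried trees, at an adjusted p under 0.05. The test was edgeR's quasi-likelihood test with the tree as a block and Benjamini-Hochberg adjustment, fitted on the 12 dried libraries of the 4 days. Higher on 6 June were 754 rows (2.83%), with a median log2 fold change of 3.06, and lower were 1073 (4.02%), with a median of -3.31. The median over all rows tested was -0.23. Every called row differed at least 2-fold, and 388 of the higher and 594 of the lower rows differed at least 8-fold. Among the called rows 96 had no counts in the 3 libraries of 6 June, and 14 had none in the 3 libraries of 7 May. These numbers cannot be compared directly, since depth differed. Counts outside the abundant rows averaged 2.70e+06 on 6 June, against 4.64e+06 on 7 May. The share of such rows among all tested rows was not counted. In a bulk branch sample, fewer cells of a type and less RNA per cell cannot be told apart.

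The number of calls depended on which trees and days entered the fit. With the 6 libraries of the 2 days alone, edgeR called 0 rows, with 4357 at an unadjusted p under 0.05. With all 24 libraries and the tree block it also called 0, with 6927 at an unadjusted p under 0.05. Without tree 4 it called 0 (4407 at an unadjusted p under 0.05), without tree 8 it called 27, and without tree 12 it called 1765. DESeq2 with the same block called 6298, and edgeR without the block 3643. Removing the abundant rows before scaling gave 1902 calls, of which 1796 were among the 1827.

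**Figure D1:**
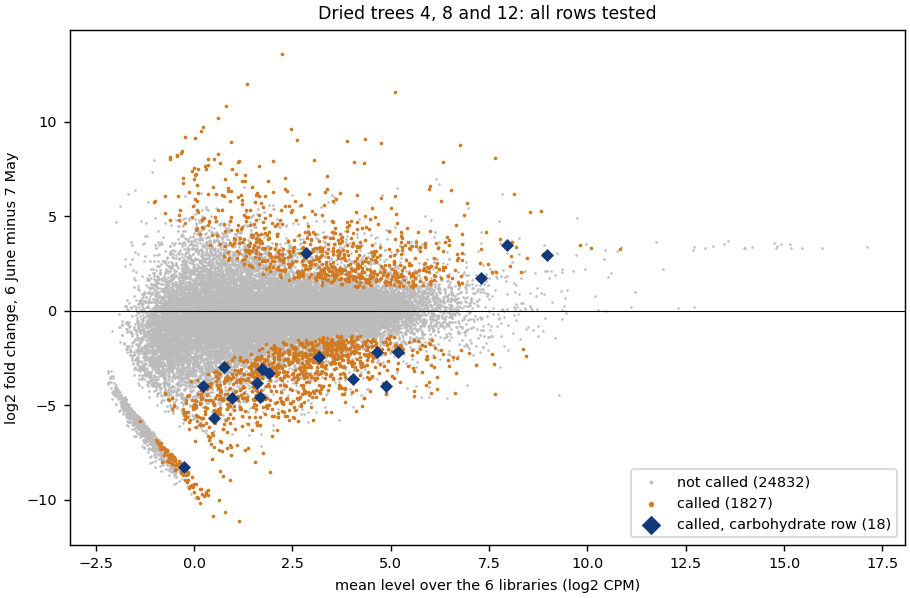
Log2 fold change (6 June minus 7 May, dried trees) of each of the 26659 tested rows against its mean level over the 6 libraries in log2 CPM; grey points were not called, orange points were, and blue diamonds are the 18 called carbohydrate rows. The 1073 rows that fell reach further toward low levels than the 754 that rose, the band at lower left holds rows with counts on 7 May and none on 6 June, and 4 blue diamonds lie above 0 and 14 below it.

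The 3 trees did not change alike across all rows. Of the tested rows, 12411 (46.6%) moved one way in all 3 trees, 4623 upward and 7788 downward. Per-tree log2 changes correlated across rows at r = 0.48 between trees 4 and 8, 0.45 between trees 4 and 12, and 0.35 between trees 8 and 12. Rows are not independent replicates, and these values describe the trees only. The libraries of the days did not overlap in 7994 tested rows (30.0%), among them 1749 of the 1827 called rows. Within a day, log2 CPM correlated at 0.71 to 0.81 between trees on 6 June, against 0.72 to 0.89 on 7 May.

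Of the 97 carbohydrate rows 84 could be tested, and 18 of these (21.4%) were called, against the 6.85% of all tested rows. Of those 18, 14 fell and 4 rose, and the other 66 were not called. Over the 84 rows the median log2 fold change was -0.68, against -0.23 over all rows tested, and 61 of the estimates (72.6%) were negative, against 57.0% over all rows tested. The libraries of the days did not overlap in 40 of the 84 rows, against 30.0% of all tested rows. They did not overlap in any of the 18 that were called, as in nearly all called rows, so this is no trait of the carbohydrate rows. The authors may have picked the named rows with these libraries in view, and rows of 1 enzyme family can share reads that RSEM apportions between them. The 13 untested rows had at most 22 counts in any of the 6 libraries, and 4 of them had none. The 18 calls became 0 with the 6 libraries alone, 0 with all 24 libraries and the tree block, 0 without tree 4, 0 without tree 8, and 36 with DESeq2. Their direction was the same in each of these fits, which could hardly reverse a sign in rows whose days do not overlap.

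**Figure D2:**
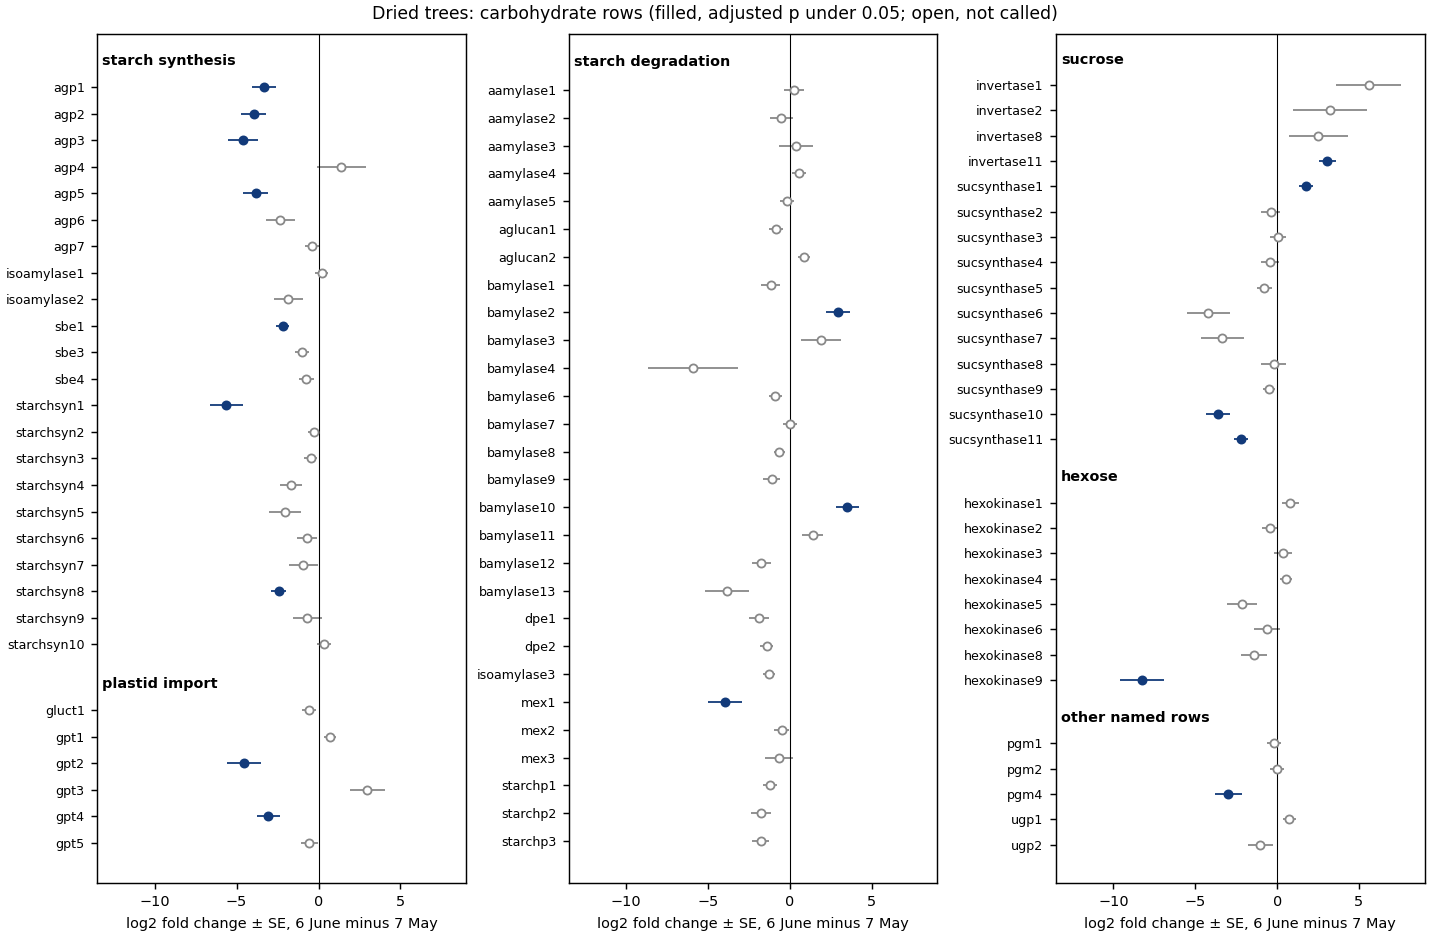
Log2 fold change with its standard error (6 June minus 7 May, dried trees, edgeR) for the 84 tested carbohydrate rows, in panels by role; filled points were called over all rows tested and open points were not. In starch synthesis every one of the 7 filled points lies left of 0, in starch degradation the beta-amylases bamylase2 and bamylase10 lie right of 0 and mex1 left, and in sucrose metabolism 2 lie on each side.

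Starch synthesis was the list with the most calls by number, but not by share, since 2 of the 5 gpt rows below were called. Of its 22 tested rows 7 fell and none rose, and the other 15 were not called. Among all tested rows 6.85% were called. The median log2 fold change was -1.34, and 19 of the 22 values were negative. Among the 7 agp rows, read as ADP-glucose pyrophosphorylase, agp1, agp2, agp3 and agp5 fell. The agp2 row had 11.4, 2.31 and 17.2 CPM in trees 4, 8 and 12 on 6 June, against 263, 66.9 and 72.6 CPM on 7 May. Every tree was lower on 6 June, and the highest level of that day lay well under the lowest of 7 May. The mean was 10.3 ± 7.50 CPM on 6 June and 134 ± 112 CPM on 7 May (SD, n = 3), a log2 fold change of -3.96 ± 0.76 (SE, edgeR adjusted p = 0.0189). For agp1 the levels were 0.601, 0.887 and 1.85 CPM on 6 June, against 9.69, 8.16 and 20.4 CPM on 7 May. Its log2 fold change was -3.31 ± 0.74 (adjusted p = 0.0294). The agp3 row had 0, 1.24 and 0 CPM on 6 June, against 14.6, 9.32 and 9.68 CPM on 7 May, which is 7 counts in all against 433 and a pooled ratio 24.9-fold lower (95% interval 11.96 to 62.2). Trees 4 and 12 thus had no agp3 count at all on 6 June (-4.63 ± 0.92, adjusted p = 0.0208). For agp5 the levels were 2.40, 0.177 and 0.529 CPM on 6 June, against 13.7, 10.7 and 8.08 CPM on 7 May. Its log2 fold change was -3.84 ± 0.78 (adjusted p = 0.0221). The other agp rows were not called. Of these, agp7 had 7.82, 10.6 and 18.1 CPM on 6 June, against 23.9, 13.98 and 13.8 CPM on 7 May, so the days overlapped.

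Of the 10 starchsyn rows, starch synthases, starchsyn1 and starchsyn8 fell. The starchsyn1 row had 0, 0.355 and 0 CPM on 6 June, against 9.63, 6.06 and 8.56 CPM on 7 May. Only tree 8 held any count of it on 6 June. Pooled over the trees these were 2 counts on 6 June against 312 on 7 May, 62.7-fold lower (exact 95% binomial interval 17.2 to 520). Pooled ratios and their intervals throughout are per scaled library size and cover counting error only. The fitted log2 fold change was -5.65 ± 1.01 (adjusted p = 0.0150). For starchsyn8 the levels were 6.61, 3.02 and 2.51 CPM on 6 June, against 25.9, 18.2 and 19.4 CPM on 7 May. Its log2 fold change was -2.44 ± 0.46 (adjusted p = 0.0176). The remaining 8 starchsyn rows were not called. Among them starchsyn4 had 124, 42.0 and 197 CPM on 6 June, against 671, 258 and 149 CPM on 7 May. Tree 12 went the other way from trees 4 and 8 there, and the estimate was -1.68 ± 0.65 (adjusted p = 0.125). The rows starchsyn3 and starchsyn10 had estimates of -0.48 ± 0.41 and 0.33 ± 0.45.

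Starch branching enzyme was represented by 3 tested sbe rows, of which sbe1 fell. Its levels were 15.03, 9.05 and 31.7 CPM on 6 June, against 82.2, 65.9 and 96.8 CPM on 7 May. All 3 trees were clearly lower on 6 June, with a log2 fold change of -2.20 ± 0.40 (edgeR adjusted p = 0.0158). The rows sbe3 (-0.999 ± 0.42, adjusted p = 0.151) and sbe4 (-0.76 ± 0.46, adjusted p = 0.297) were not called. The days did not overlap in either, as in 30.0% of all tested rows. Neither isoamylase row of this list, a family of enzymes that trim branches, was called. The estimates were 0.18 ± 0.38 for isoamylase1 and -1.84 ± 0.87 for isoamylase2.

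Rows for import into the plastid included 5 gpt rows, read as glucose 6-phosphate/phosphate translocators, which bring glucose 6-phosphate into the plastid. Of the 6 rows of this list 2 fell and none rose, with a median log2 fold change of -0.58. Among all tested rows 4.02% were called lower and 2.83% higher. The list includes gluct1, a row whose short name was given no role here, and the median of the 5 gpt rows alone was -0.57. The gpt2 row had 1.80, 0.532 and 0.132 CPM on 6 June, against 37.7, 5.48 and 11.5 CPM on 7 May. All 3 trees were lower on 6 June, though the levels of 7 May were themselves far apart (log2 fold change -4.55 ± 1.03, adjusted p = 0.0309). For gpt4 the levels were 0.601, 2.13 and 0.793 CPM on 6 June, against 9.94, 8.39 and 8.48 CPM on 7 May. Its log2 fold change was -3.06 ± 0.68 (adjusted p = 0.0296). Not called were gpt1, with 76.4, 63.5 and 117 CPM on 6 June, against 42.7, 51.7 and 66.6 CPM on 7 May, and gpt5 and gluct1, with estimates of -0.57 ± 0.51 and -0.59 ± 0.45. Positive estimates in this list were those of gpt1 (0.70 ± 0.35, adjusted p = 0.215) and gpt3 (2.98 ± 1.07, adjusted p = 0.101), the second named here after its values were seen. The gpt3 row had 1.80, 27.3 and 3.57 CPM on 6 June, against 2.01, 1.75 and 0.240 CPM on 7 May, so tree 4 hardly differed and the days overlapped.

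Starch degradation had calls in both directions. Of 28 tested rows 2 rose, 1 fell and 25 were not called, against 2.83% called higher and 4.02% lower of all tested rows. The median log2 fold change of the 28 was -0.76. The median was -0.78 without the 2 aglucan rows, whose short name was given no role here. Both that rose were beta-amylases. The bamylase10 row had 626, 508 and 1643 CPM in trees 4, 8 and 12 on 6 June, against 47.8, 100.1 and 91.9 CPM on 7 May. Each library of 6 June was several-fold above each library of 7 May. Its mean was 926 ± 624 CPM on 6 June and 79.9 ± 28.2 CPM on 7 May (SD, n = 3), a log2 fold change of 3.49 ± 0.69 (adjusted p = 0.0208). The bamylase2 row had 1106, 1140.4 and 2402 CPM on 6 June, against 67.1, 189 and 410.2 CPM on 7 May. Tree 12 was the highest of the 3 on both days, and no libraries of the days overlapped (2.95 ± 0.74, adjusted p = 0.0402). The other 10 beta-amylase rows were not called, and 8 of the 12 tested had negative estimates. Negative estimates included those of bamylase12 (-1.75 ± 0.59, adjusted p = 0.0888) and bamylase13 (-3.83 ± 1.36, adjusted p = 0.0986), both named here after their values were seen. The uncalled row bamylase11 had a positive estimate, with 278, 790.0 and 476 CPM on 6 June, against 108, 131 and 416 CPM on 7 May. Tree 12 had nearly the same bamylase11 level on both days, and the estimate was 1.39 ± 0.63 (adjusted p = 0.179).

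The row that fell in this list was mex1, read as the maltose exporter of the plastid envelope. It had 0.601, 0 and 0.264 CPM on 6 June, against 5.54, 2.91 and 2.48 CPM on 7 May. These were 3 counts on 6 June against 144 on 7 May, 19.3-fold lower when pooled (exact 95% binomial interval 6.47 to 94.7). The log2 fold change was -3.98 ± 1.05 (adjusted p = 0.0470), close to the threshold. The rows mex2 and mex3 were not called (-0.50 ± 0.45 and -0.67 ± 0.83). Just outside the threshold stood dpe2, read as a disproportionating enzyme, with -1.43 ± 0.39 (adjusted p = 0.0501). Beside it stood isoamylase3, read as a debranching enzyme and put in this list by its number alone, with -1.27 ± 0.36 (adjusted p = 0.0544). The starch phosphorylase row starchp3 followed at -1.79 ± 0.50 (adjusted p = 0.0550). In these 3 rows the libraries of the days did not overlap, as in 30.0% of all tested rows. The remaining dpe and starchp rows had estimates of -1.91 ± 0.61 for dpe1, -1.24 ± 0.43 for starchp1 and -1.76 ± 0.61 for starchp2, with adjusted p of 0.0746, 0.0906 and 0.0942. None of the 5 alpha-amylase rows was called, with estimates from -0.52 to 0.53, and neither aglucan row was (-0.86 ± 0.42 and 0.86 ± 0.38).

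Sucrose cleavage also split. Of 15 tested rows 2 rose and 2 fell, with a median log2 fold change of -0.41. Among all tested rows 2.83% were called higher and 4.02% lower. Of the invertases, invertase11 rose. It had 9.62, 33.5 and 21.2 CPM on 6 June, against 2.45, 3.61 and 1.76 CPM on 7 May. All 3 trees were higher on 6 June (3.05 ± 0.52, adjusted p = 0.0132, the lowest of any carbohydrate row). The rows invertase2 and invertase8 were not called. The invertase2 row had 115, 483 and 96.4 CPM on 6 June, against 0.503, 1.05 and 134 CPM on 7 May. For invertase8 the levels were 69.7, 223 and 51.0 CPM on 6 June, against 0.944, 2.10 and 92.1 CPM on 7 May. In both rows trees 4 and 8 were far higher on 6 June and tree 12 was not, since it was already high on 7 May. Invertase1, named here after its values were seen, had 12.6, 192 and 7.41 CPM on 6 June, against 0, 0 and 7.36 CPM on 7 May, so that tree 12 hardly differed (5.60 ± 1.98, adjusted p = 0.0981). Another 7 invertase rows had too few counts to test. Without the 7 May library of tree 12, chosen for these rows after their values were seen, edgeR called 31 carbohydrate rows, including the 18, and 4012 rows in all.

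Among 11 sucrose synthase rows, sucsynthase1 rose and sucsynthase10 and sucsynthase11 fell. The sucsynthase1 row had 190.0, 398 and 290.4 CPM on 6 June, against 93.6, 88.2 and 82.9 CPM on 7 May. Levels on 7 May were close together and those of 6 June all higher (1.75 ± 0.43, adjusted p = 0.0394). For sucsynthase10 the levels were 9.02, 2.84 and 5.29 CPM on 6 June, against 121, 59.5 and 18.3 CPM on 7 May (-3.61 ± 0.73, adjusted p = 0.0221). The sucsynthase11 row had 18.6, 7.10 and 11.5 CPM on 6 June, against 63.7, 66.8 and 38.3 CPM on 7 May (-2.18 ± 0.43, adjusted p = 0.0205). Called rows of 1 family thus moved in opposite directions. The days did not overlap in these rows, as in nearly all called rows. The rows sucsynthase2 (-0.41 ± 0.59) and sucsynthase4 (-0.42 ± 0.55) were not called.

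**Figure D3:**
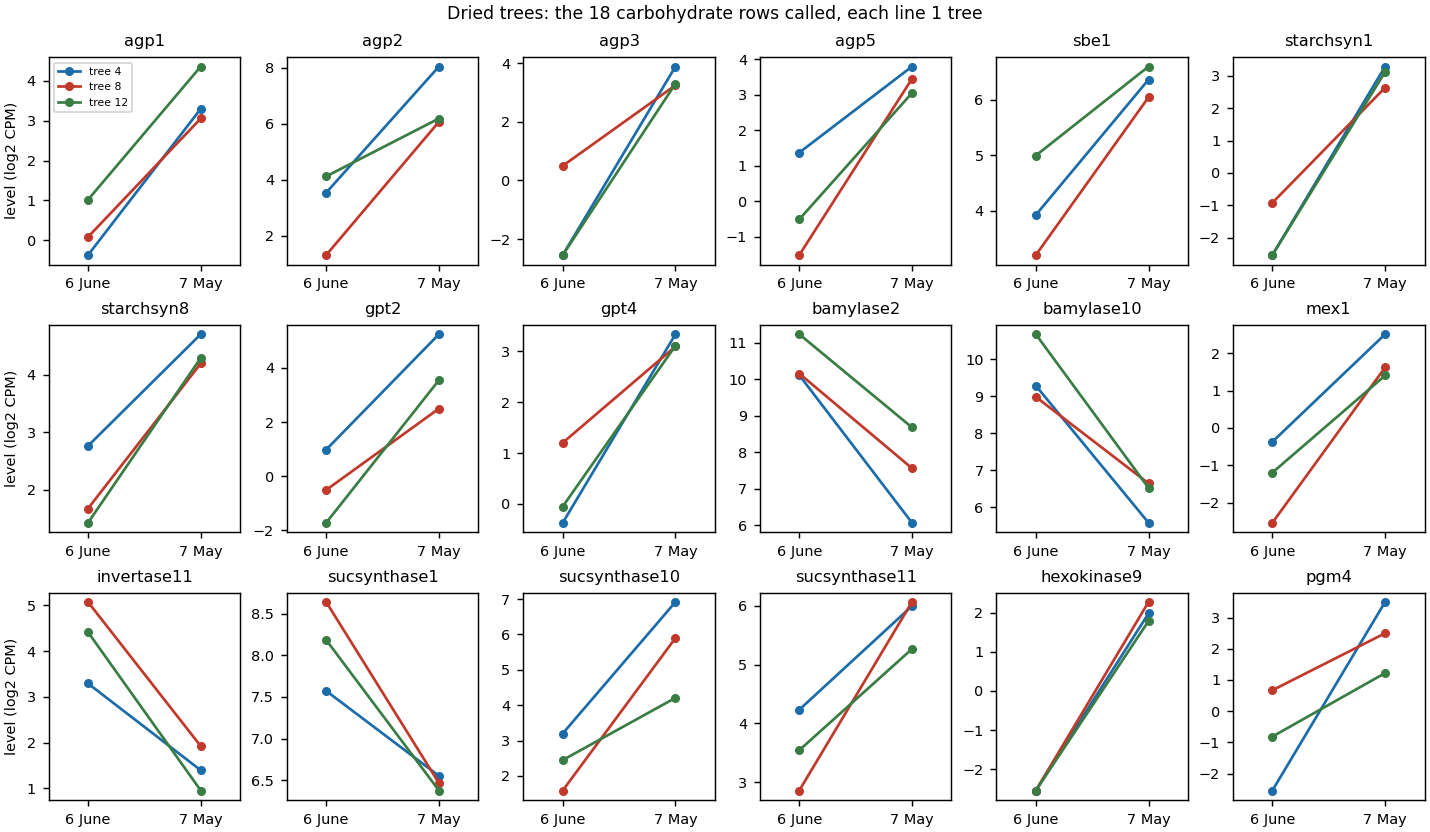
Levels in log2 CPM of the 18 called carbohydrate rows on 6 June (left) and 7 May (right) of each panel, 1 line per dried tree (blue, tree 4; red, tree 8; green, tree 12); scales differ between panels. In each panel the 3 lines slope the same way, upward to 7 May in the 14 rows that fell and downward to 7 May in bamylase2, bamylase10, invertase11 and sucsynthase1.

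Hexokinase phosphorylates free hexoses, and of 8 tested rows hexokinase9 fell. Among all tested rows 4.02% were called lower. The hexokinase9 row had 0 counts in trees 4, 8 and 12 on 6 June, against 3.77, 4.66 and 3.28 CPM on 7 May. The totals were 0 counts on 6 June against 141 on 7 May, at least 18.9-fold lower when the floor is set at 3 counts for the group. The fitted log2 fold change, -8.24 ± 1.32 (adjusted p = 0.0147), depends on the prior count and is no bound. The other 7 hexokinase rows were not called. The rows hexokinase4 (0.57 ± 0.37), hexokinase1 (0.80 ± 0.51) and hexokinase2 (-0.44 ± 0.46) had small estimates, and the list median was -0.53. Phosphoglucomutase interconverts glucose 1- and 6-phosphate, and pgm4 fell, with 0, 1.42 and 0.397 CPM on 6 June, against 11.1, 5.48 and 2.16 CPM on 7 May (-2.97 ± 0.80, adjusted p = 0.0492). The 3 libraries of 6 June held 11 counts of it, against 251 on 7 May. Estimates for pgm1 and pgm2 were -0.18 ± 0.43 and -0.01 ± 0.41. The ugp rows, read as UDP-glucose pyrophosphorylase, were not called (0.75 ± 0.40 for ugp1, -1.03 ± 0.78 for ugp2).

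Rows with gene model IDs and no name made up 1809 of the calls. The largest rise at a mean of at least 1 log2 CPM was in Oeu052284.1, with 115, 61.7 and 295 CPM in trees 4, 8 and 12 on 6 June, against 0 in all 3 trees on 7 May. That is 2769 counts on 6 June against none on 7 May, at least 2296-fold higher (log2 fold change 13.60 ± 0.99, adjusted p = 0.0021). Oeu057093.1 had 12.6, 149 and 28.2 CPM on 6 June, against 0 in all 3 trees on 7 May, at least 892-fold higher (1076 counts against none, adjusted p = 0.00669). Both thus had counts in all 3 dried trees on 6 June and in none of them on 7 May. Oeu033078.1 had 0 counts in all 3 trees on 6 June, against 41.6, 14.8 and 35.4 CPM on 7 May, at least 165-fold lower (log2 fold change -11.13 ± 1.06, adjusted p = 0.00563). Oeu021058.1 had 0.601, 0 and 0.132 CPM on 6 June, against 174, 138 and 2.88 CPM on 7 May, so tree 12 was low on both days. Its pooled ratio, 2 counts against 3980, was 800-fold lower (exact 95% binomial interval 221 to 6607, adjusted p = 0.0132). Some watered trees were lower on 6 June in these 2 rows as well. Oeu021058.1 had 41.6, 8.71 and 4.69 CPM in watered trees 3, 9 and 11 on 6 June, against 110, 0 and 12.4 CPM on 7 May. For Oeu033078.1 the watered levels were 39.9, 7.72 and 3.75 CPM on 6 June, against 18.8, 0 and 82.3 CPM on 7 May.

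Most of the change in the medians of the called rows was present by 23 May, and it was absent on 29 July. Among the 754 that were higher on 6 June, the median level in dried trees was 1.89 log2 CPM on 7 May, 3.96 on 23 May, 4.80 on 6 June and 1.87 on 29 July. Among the 1073 that were lower, it was 4.02, 1.65, 0.90 and 4.15 log2 CPM on the same days. The rows were chosen on 6 June and 7 May, so only the other days add to the choice, and the days of 1 tree are not independent. The 6 June libraries of the dried trees did not overlap those of 29 July in any of the 18 carbohydrate rows, in 97.2% of all called rows and in 51.7% of all tested rows. Between 6 June and 23 May there was no overlap in 3 of the 18, in 28.5% of all called rows and in 12.4% of all tested rows. All called rows were chosen for their 6 June levels, so neither count is a result about the carbohydrate rows. The 3 rows without overlap with 23 May were agp3, hexokinase9 and sucsynthase10, whose mean log2 levels that day were nearer to 7 May than to 6 June. The bamylase10 row, for example, had 2575, 1574 and 2933 CPM on 23 May and 54.3, 65.6 and 42.4 CPM on 29 July in trees 4, 8 and 12. Starchsyn1 had 1.54, 0 and 1.20 CPM on 23 May and 9.40, 11.1 and 13.97 CPM on 29 July.

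**Figure D4:**
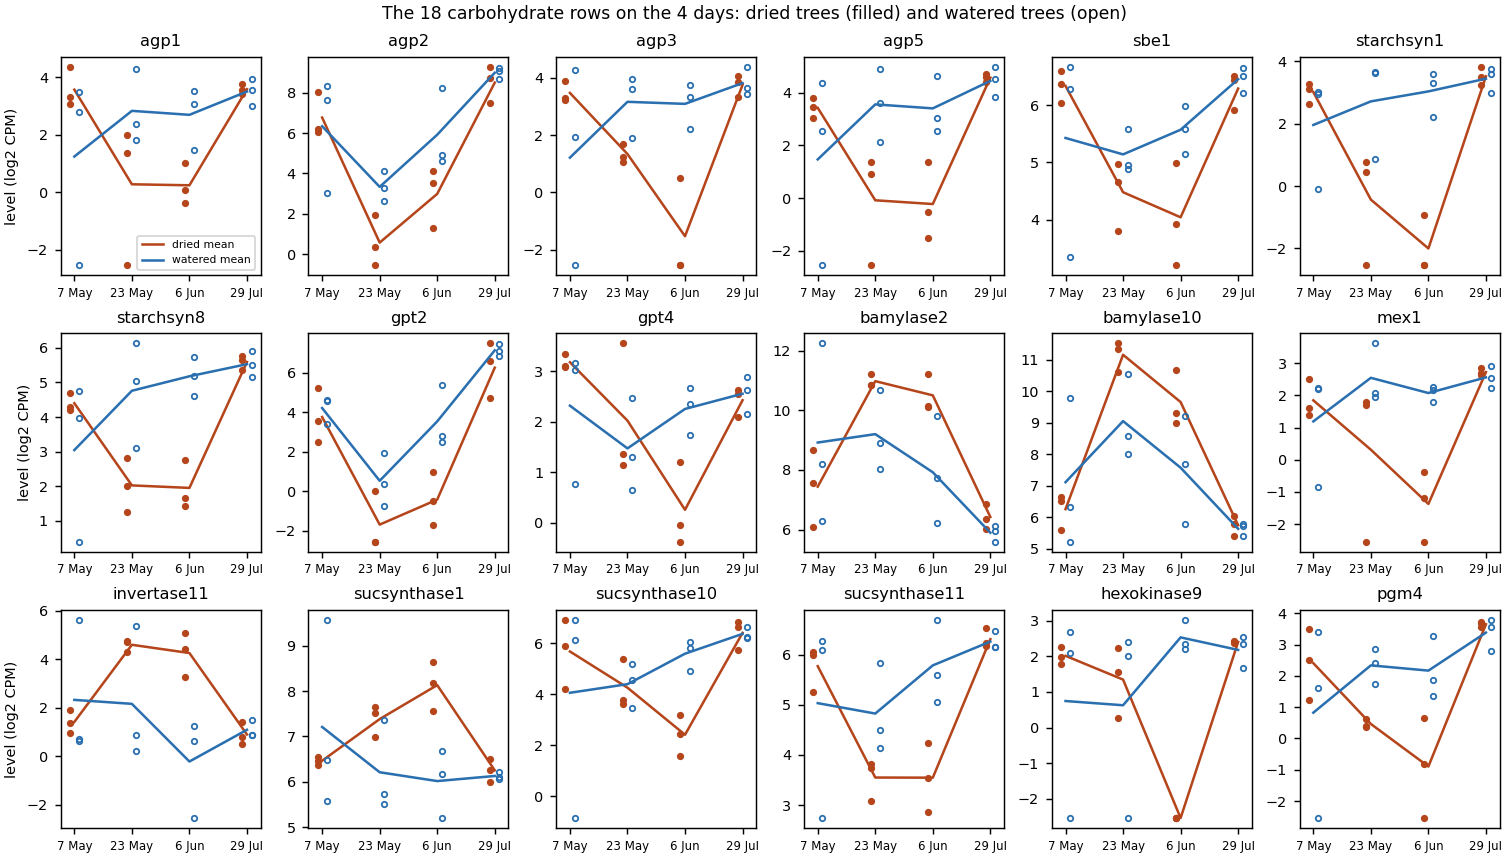
Levels in log2 CPM of the 18 called carbohydrate rows on 7 May, 23 May, 6 June and 29 July, with 1 point per tree (filled, dried; open, watered) and lines through the group means; scales differ between panels. Dried means leave their 7 May level by 23 May or 6 June in each panel and lie near the watered means on 29 July, and watered points of 7 May are widely spread.

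The watered trees were sampled on the same dates. Their contrast was fitted on all 24 libraries with the tree block, unlike the main dried fit, which used dried libraries alone. Between 6 June and 7 May edgeR called 0 of 29107 rows in the watered trees, with 1400 at an unadjusted p under 0.05. In that same fit the dried contrast also called 0 rows, with 6927 at an unadjusted p under 0.05. The watered result therefore cannot be set beside the calls of the main dried fit. Whether the change of the dried trees differed from that of the watered trees was tested as an interaction. It was fitted over all 24 libraries with the tree block and called 0 of 29107 rows (0%), with 5327 at an unadjusted p under 0.05. DESeq2 called 2583 (8.87%) and edgeR without the block 310 (1.07%). Without watered tree 3, edgeR with the block called 96. Of the 18 carbohydrate rows 17 had an unadjusted interaction p under 0.05, with adjusted p from 0.176 to 0.277. The calls within the dried arm were thus not shown to be particular to it. Those 18 rows were chosen for their change in dried libraries that the interaction used again, which favours a low unadjusted p in them.

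Interaction estimates moved when the library of watered tree 9 on 7 May was left out. The log2 CPM of that library correlated at 0.45 and 0.60 with watered trees 3 and 11, which correlated at 0.86, and the abundant rows held 72.0% of its count, against 28.6% and 26.4% in trees 3 and 11. Without it, edgeR again called 0 rows. All 18 carbohydrate interactions kept their sign, with adjusted p from 0.381 to 0.838. The rows that rose moved the most. The interaction of bamylase10 was 3.42 with that library and 0.93 ± 1.17 (SE) without it, that of bamylase2 was 4.81 and 1.56 ± 1.22, and that of sucsynthase1 was 3.44 and 1.36 ± 0.69. For invertase11 it was 6.80 and 3.63 ± 1.41, all on the log2 scale. Interactions of the rows that fell moved less, for example hexokinase9 at -9.48 and -8.86 ± 2.02, and starchsyn8 at -4.04 and -3.39 ± 0.94.

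In 2 of the 18 rows, hexokinase9 and starchsyn8, all 3 dried trees went down and all 3 watered trees went up. The dried direction was fixed by the choice of the rows, and the share of all rows that did the same was not counted. The starchsyn8 level in watered trees 3, 9 and 11 was 53.6, 36.0 and 24.2 CPM on 6 June, against 26.9, 1.15 and 15.6 CPM on 7 May. For hexokinase9 it was 4.46, 4.95 and 7.98 CPM on 6 June, against 4.12, 0 and 6.22 CPM on 7 May. Watered trees 3 and 11 changed by 0.99 and 0.63 log2 units in starchsyn8 and by 0.11 and 0.35 in hexokinase9. In the rest of the 18 rows the watered trees did not all move against the dried trees. For example, sbe1 had 63.4, 47.7 and 35.2 CPM in watered trees 3, 9 and 11 on 6 June, against 77.4, 9.96 and 102 CPM on 7 May. For agp2 the watered levels were 295, 29.9 and 24.6 CPM on 6 June, against 319, 8.04 and 201 CPM on 7 May. Across all rows the watered trees gave a different picture with and without tree 9. Of the 754 rows called higher in dried trees, 29.4% were also higher in watered trees by their mean change, or 61.5% with trees 3 and 11 alone, against 57.4% and 44.7% of all tested rows. Of the 1073 called lower, 13.4% were lower in watered trees, or 75.3% with trees 3 and 11 alone, against 42.6% and 55.2% of all tested rows. So with tree 9 left out, most called rows had the same sign in the watered trees as in the dried trees.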

How the data were processed

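Poly-A RNA from branches of 6 olive trees was counted on 4 days, and the replicate number is the tree. Per the submitters' processing notes, cutadapt, Bowtie2, RSEM, DESeq2 and limma were used. Their versions, and the build of the genome, were not given in the sources used here. For each library, the authors deposited RSEM expected counts, which are not whole and were rounded before testing, and a table of scaled values (signal) that equal the rounded counts times a factor for each library. The authors also deposited log2 fold changes and adjusted p-values of their own comparisons. No per-sample column was left unused. The gene table at hand matched none of the model IDs, so these have no names, sequences or positions here.

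Tests used edgeR 4.0.16 in R 4.3.3 (TMM, filterByExpr with a minimum count of 10, tree as a block, 12 dried libraries, contrast 6 June minus 7 May), with calls at p under 0.05 after Benjamini-Hochberg adjustment. A standard error is the size of the log2 fold change divided by the root of its F statistic. Levels are TMM-scaled CPM over the 24 libraries, and log2 CPM has a prior count of 2. The interaction and the watered contrast used all 24 libraries. The same trees were sampled on both days, which pairs the libraries, although deviations from the day means of 1 tree correlated at only 0.04 (tree 4), -0.23 (tree 8) and 0.11 (tree 12). No libraries of the same arm and day held identical counts. The method was tested on simulated counts. Each arm and day has 3 trees. P-values and standard errors of the main fit rest on the spread between single branches of the dried trees, pooled over the 4 days. They do not measure the spread on 6 June and 7 May alone. A paired sign-flip test of 3 trees could not go below a p of 0.25.

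The members, gene lists and fits were chosen with earlier results of these data known. Rows were named by rule. The rule took every called carbohydrate row, up to 3 rows of each family by mean level, and the 2 IDs with the largest rise and the 2 with the largest fall among called rows whose mean reached 1 log2 CPM and whose days did not overlap. The rows invertase1 and gpt3, with positive estimates, and bamylase12 and bamylase13, with negative ones, fall outside it. Alternatives were DESeq2 1.42.0, its size factors, no filter beyond 1 count, no abundant rows, limma 3.58.1 (voom with quality weights, and log2 of the authors' scaled values plus 1), fits without the block, on other sets of libraries and without single trees. Chosen after seeing the data were 2 more fits, without the 6 June library of tree 4 or the 7 May library of tree 12, and an interaction without the watered 7 May library of tree 9.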

Additional observations from a re-analysis of the deposited data

How the results depend on the processing

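Counts of called rows moved widely with the fit, while no called carbohydrate row changed direction in any of the 15 alternatives. The days did not overlap in any of these rows, so refits of the same libraries could hardly reverse a sign. For all rows, against 1827, the dried contrast had 3643 calls with no replicate block, 0 with the replicate block on the 6 libraries of the 2 days and 0 with the block on all 24 libraries, and 316 on all 24 without the block. It had 6298 with DESeq2, 5134 with no filter beyond 1 count, 3056 with limma voom and quality weights, and 2932 with limma on the authors' scaled values. Leaving out 1 tree gave 0 to 1765 calls, and leaving out only the 6 June library of tree 4 or the 7 May library of tree 12 gave 1136 and 4012. Of the carbohydrate rows, against 18, calls were 0 on the 6 libraries, 0 on all 24 with the block, 2 on all 24 without it, 36 with DESeq2, and 34 with no filter. Leaving out 1 tree gave 0 to 15, and without those single libraries of trees 4 and 12 calls were 11 and 31. The interaction, 0 in the fit with the block, called 310 with no replicate block and 2583 with DESeq2, and 0 to 96 when 1 tree was left out. The causes of these differences were not tested. DESeq2 size factors (1948 and 20 calls) and removal of abundant rows (1902 and 18) changed little. With voom 51.4% of calls were higher on 6 June, against 41.3%, and without tree 12 50.1%. The authors' scaled values put the median log2 fold change of all rows at -0.38, against -0.23. The share held by abundant rows on 6 June and the agreement of the trees stayed within their spread under other cut-offs, scalings and prior counts. Depth limits the rows at 0 to 3 counts on 6 June most of all in tree 4, whose library left 1077796 counts outside the abundant rows.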

Other observations

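A comparison named control 0 and drought 2 in the authors' deposited table gives 4525 of 31870 rows an adjusted p under 0.05, of which 2826 have a positive and 1699 a negative log2 fold change. The header does not tie these names to days or state the direction. All 1827 rows called between 6 June and 7 May in dried trees have a value in the authors' deposited table, each with the opposite sign to 6 June minus 7 May, and 1688 of them are under 0.05 there. Across the 26400 rows shared with the tested rows, the log2 fold changes correlated at r = -0.98. The authors' values thus look like the same contrast with its sign turned round, not like an opposite change. Of the 18 carbohydrate rows, 17 are under 0.05 in the authors' deposited table. It rests on these same libraries and adds no independent evidence.

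Of the 29 abundant rows, edgeR called 3 (10.3%), against 6.85% of all rows tested. A positive log2 fold change for 6 June minus 7 May was found in 27 of them (93.1%), against 43.0% of all rows tested, and 22 (75.9%) were higher in all 3 dried trees, against 17.3%. They were chosen for reaching 1% of any library, those of 6 June included, so these shares are a description only. They have no names in the files used here. Their part in the changes of other rows was not tested beyond the fit that left them out, which called 18 carbohydrate rows, 17 of them among the 18 of the fit with them.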
